A study of Gallus gallus with 6 samples.

Results

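Cells recognise viral or misplaced nucleic acids with sensors such as MDA5 (IFIH1) and cGAS, pass the signal through adaptors and kinases to interferon regulatory factors, and so make type I interferon. Secreted interferon binds the IFNAR1 and IFNAR2 receptor pair, and a complex of STAT proteins with IRF9 then switches on interferon-stimulated genes, whose products block viral RNA, translation and assembly. Chickens lack RIG-I, so MDA5 is their main cytosolic RNA sensor of this family.

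The genes described here were chosen by name: rows of the deposited gene table whose symbol is on a list of 50 interferon response and nucleic acid sensor symbols. Of these symbols 41 had a row among 18495 genes, and all 41 passed the filter on low values. They were divided into 8 sensors and adaptors, 15 signalling genes and 18 effectors. The symbols with no row were IRF3, IRF10, LGALS3BP, MB21D1, PARP14, SAMD9L, STING1, USP41 and XAF1. Several of these name a gene that was measured under another symbol: RefSeq's table for GRCg7b gives IRF3 as a synonym of IRF7, IRF10 of IRF9 and STING1 of TMEM173, and the row named USP18 overlaps the RefSeq gene USP41. MB21D1 is an older name of CGAS. Which mammalian genes the rows named IRF9 and USP18 correspond to was not settled.

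Expression was measured 48 h after plasmid transfection in the immortalized chicken preadipocyte line ICP1. KLF2 libraries came from 3 wells given pCMV-myc-KLF2, a vector in which the strong viral CMV promoter drives a myc-tagged KLF2, and EV libraries from 3 wells given the empty pCMV-myc. All 6 wells therefore received plasmid DNA and transfection reagent, and the series as analysed here has no untransfected well. A well counted as a biological replicate per the labels' protocols, and p-values therefore cover only well-to-well variation within a single line.

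Depth was 13255169 to 14168807 assigned reads in KLF2 libraries and 13434600 to 14058957 in EV libraries. KLF2, the transfected gene, had 1052, 1618 and 2412 normalized counts in KLF2 1 to 3, against 1093, 675 and 697 in EV 1 to 3. The groups overlapped, because EV 1 lay above KLF2 1, and the log2 fold change of 1.00 (SE 0.31) did not pass in limma with Benjamini-Hochberg adjustment over all genes (adjusted p = 0.962). Its unadjusted p was 0.0126 in limma, 0.00851 in edgeR and 0.000302 in DESeq2, and it passed in none of them after adjustment. The exact permutation p, two-sided, was 0.2. The stromal markers PDGFRA, COL1A1, COL1A2 and VIM had group means from 8028 to 105395, while DLK1, CD34 and ENG had means under 10. The 8 leukocyte markers with a row summed to 4169 to 4192 in KLF2 libraries and 3636 to 4376 in EV libraries. Most of that sum was LAPTM5, averaging 2950 in KLF2 and 2846 in EV libraries, and SPI1, averaging 967 in KLF2 and 933 in EV libraries. PTPRC, which defines leukocytes, averaged 70.1 in KLF2 and 64.7 in EV libraries, and LCP1 averaged 3.26 in KLF2 libraries and had 0 reads in EV libraries. The 4 epithelial markers with a row, mainly KRT7, summed to 142 to 233 in KLF2 libraries and 176 to 317 in EV libraries, and their part in the members' values was not tested. EV 1 and KLF2 3 were the libraries richest in reads of ribosomal RNA genes, at 0.350% and 0.131% of reads, against 0.00162% to 0.0215% in the others. They also had the highest scores, 38.4 and 27.0, on the first principal component of the 10853 genes outside the list with a mean of at least 20. That component held 67.1% of their variance. KLF2 1 had the lowest score, -42.4, and KLF2 2, EV 2 and EV 3 lay at -15.6, -5.47 and -2.04.

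Many interferon-stimulated genes were abundant in both groups of wells, while the interferon gene on the list had low counts. The further interferon symbols looked up, IFNA3, IFNAL2, IFNL3, IFNK, IFNB and IFNG, had no row by these names, so other interferons were not assessed. IFNW1, which RefSeq lists with the synonym IFNB, had 5.08, 4.14 and 6.69 normalized counts in KLF2 1 to 3, against 14.8, 1.02 and 8.60 in EV 1 to 3. Its span on the chromosome overlaps UBAP2, and reads from a shared stretch cannot be told apart. To set genes of different length side by side, counts were divided by the deposited gene length in kilobases. On that scale IFIT5, an RNA-binding antiviral protein, had the highest mean of the members at 3343 normalized counts per kb, the 99.0th percentile of the 16765 tested genes. B2M, the light chain of MHC class I, had 2808 per kb, OASL, of the 2-5A synthetase family, 2289, and IFI6, a small interferon-induced membrane protein, 1700. Next came TRIM25, a ubiquitin ligase, at 1426, USP18, a negative regulator of interferon receptor signalling, at 1324, NMI at 1008 and IFIH1 at 979. In all, 11 of 41 members were in the top 10% of tested genes per kb and 36 were above the median gene, which had 48.4 per kb. The lowest member per kb was TLR7, an endosomal RNA receptor, at 7.88. Together the members took 0.462%, 0.475% and 0.527% of assigned reads in KLF2 1 to 3, against 0.632%, 0.467% and 0.594% in EV 1 to 3.

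**Figure D1:**
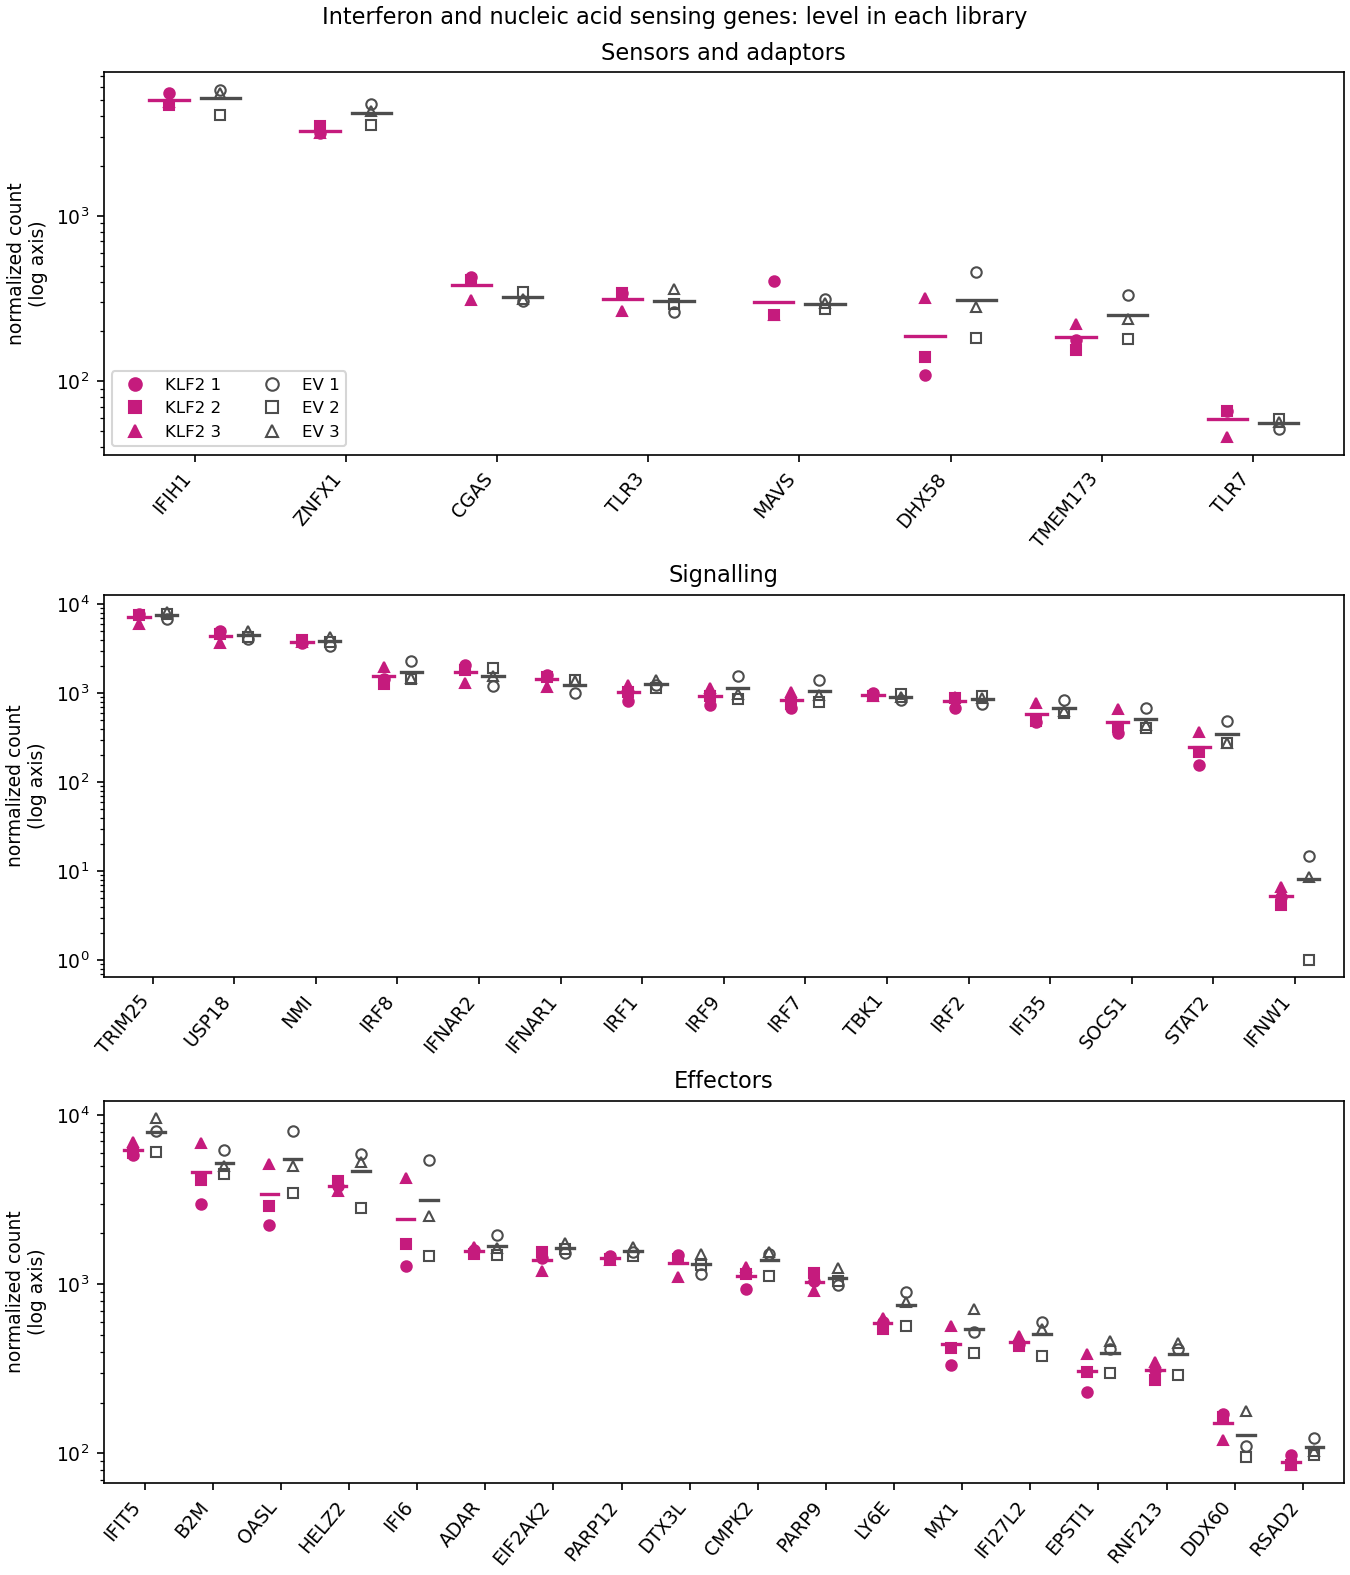
Normalized count of each of the 41 genes on a log axis, by role, with genes ordered by mean. Filled points are the 3 KLF2 libraries and open points the 3 EV libraries, the marker shape gives the replicate number, and bars are group means; the groups overlapped for 39 genes, all but ZNFX1 and RSAD2.

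No member passed the threshold between KLF2 and EV libraries. In limma 0 of 41 members and 0 of 16765 genes had an adjusted p under 0.05, which is 0% of genes, and the smallest adjusted p of a member was 0.962. edgeR and DESeq2 on the recovered reads also called 0 members. At an unadjusted p under 0.05, limma had 1 member lower, ZNFX1, where 1.2% of tested genes were lower at that level, and 0 members higher, where 0.913% were. edgeR had the same 1 member lower, beside 0.717% of its genes, and 0 higher, beside 0.548%. DESeq2 had 2 lower, ZNFX1 and OASL, beside 0.541%, and 0 higher, beside 0.395%. Groups did not overlap for 2 members, ZNFX1 and RSAD2, both lower, where 3.26% of all tested genes lay lower without overlap and 3.39% higher. Of the 41 members, 33 had a lower mean log2 value in KLF2 libraries, or 80.5%, beside 50.9% of all tested genes. The members were chosen with earlier results of these data known, so this is not an unselected comparison. Among the 39 tested pathway genes outside the list, 56.4% were lower. The median log2 fold change of the members was -0.14, beside -0.00605 for all tested genes. The members share the same 6 wells, and pairs of effectors were correlated across them, so the 33 of 41 are not independent observations. With 1 library left out, the log2 fold change of 40 of 41 members, all but ZNFX1, moved by more than 1.5 times or turned. Single wells moved this median by more than 1.5 times: it was -0.33 without EV 2, -0.25 without KLF2 3 and -0.08 without EV 1. ZNFX1 was no longer under an unadjusted p of 0.05 without KLF2 1, KLF2 2, EV 1 or EV 3. At an unadjusted p under 0.05 in limma, 0 members were lower without KLF2 1, KLF2 2, EV 1 or EV 3. The shares of all genes there were 0.665% to 1.07%. Without EV 2, 9 members were lower at that level, beside 1.27% of genes, and without KLF2 3 there were 12, beside 7.93%. Without EV 1 and KLF2 3 together there were 9, beside 5.88%. EV 2 was the lowest EV library for 28 of 41 members, and leaving it out lowers their log2 fold changes by construction. In each of these fits 0 members passed the adjusted threshold. Fold changes are on the log2(normalized count + 1) scale.

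**Figure D2:**
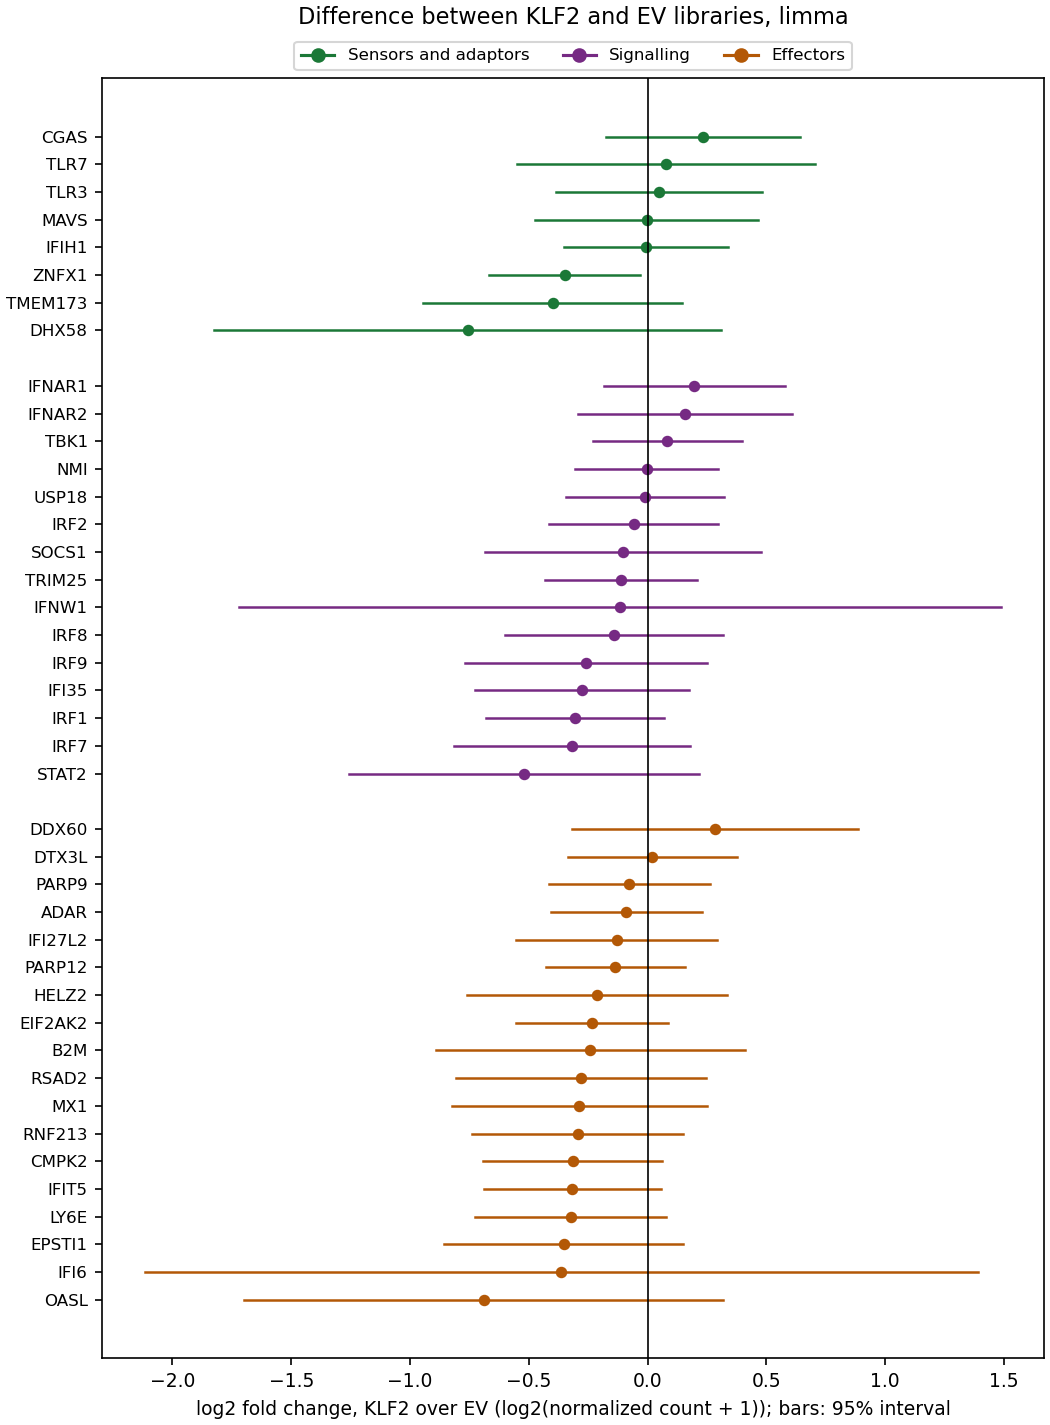
Log2 fold change of each member, KLF2 over EV, from limma over all genes, with its 95% interval, by role. The interval of ZNFX1 alone lies wholly below 0, and the other 40 span it.

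The sensors and adaptors were nearly balanced, with 5 of 8 lower in mean log2 value and a median log2 fold change of -0.00589 that ranged from -0.15 to 0.08 over the alternatives and turned positive under 5 of 18 of them: edgeR, DESeq2, without EV 3, without KLF2 3, and without EV 1 and KLF2 3 together. IFIH1, the RNA sensor MDA5, had 5521, 4716 and 4906 normalized counts in KLF2 1 to 3, against 5802, 4059 and 5522 in EV 1 to 3. The highest and the lowest of the 6 values were both EV libraries. The difference on the log2 scale was -0.00849 (SE 0.16), with a 95% interval from -0.35 to 0.34. DHX58, the helicase LGP2 that modulates MDA5 signalling, had 109, 141 and 317 in KLF2 1 to 3, against 459, 183 and 281 in EV 1 to 3. It was the most variable sensor: EV 1 was 4.23 times KLF2 1, KLF2 3 lay above EV 2 and EV 3, and its log2 fold change of -0.76 had an SE of 0.46. It was -1.21 without KLF2 3 and -0.42 without EV 1. MAVS, the mitochondrial adaptor to which MDA5 signals, had 401, 252 and 250 in KLF2 1 to 3, against 314, 273 and 297 in EV 1 to 3, a log2 fold change of -0.00329.

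ZNFX1, a helicase that binds viral double-stranded RNA, was the member with the lowest unadjusted p. It had 3158, 3512 and 3181 normalized counts in KLF2 1 to 3, against 4745, 3558 and 4319 in EV 1 to 3. Every KLF2 library lay below every EV library, but KLF2 2 and EV 2 were close. KLF2 libraries averaged 3284 ± 198 and EV libraries 4207 ± 601 (SD, n = 3), a log2 fold change of -0.35 (SE 0.15) with an unadjusted p of 0.0334 in limma that did not pass (adjusted p = 0.962). The exact permutation p, two-sided, was 0.1, the smallest that 3 against 3 allows. Its span overlaps PHACTR3, so part of its reads may be shared.

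The DNA sensor and its adaptor had differences of opposite sign, neither past the threshold. CGAS, which makes the messenger cGAMP from cytosolic DNA, had 428, 412 and 309 normalized counts in KLF2 1 to 3, against 306, 348 and 314 in EV 1 to 3. TMEM173, the cGAMP receptor STING, had 179, 155 and 222 in KLF2 1 to 3, against 332, 180 and 237 in EV 1 to 3. The log2 fold changes were 0.23 (SE 0.19) for CGAS and -0.40 (SE 0.25) for TMEM173, and both genes had overlapping groups. TMEM173 was at -0.61 without EV 2 and -0.17 without EV 1, and CGAS at 0.38 without KLF2 3 and 0.15 without KLF2 1. TLR3, the endosomal receptor for double-stranded RNA, had 340, 342 and 265 in KLF2 1 to 3, against 261, 295 and 363 in EV 1 to 3. TLR7 had 66.0, 66.3 and 45.9 in KLF2 1 to 3, against 51.3, 59.1 and 56.4 in EV 1 to 3. Neither Toll-like receptor separated the groups, and their log2 fold changes were 0.05 and 0.08.

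Among the 15 signalling genes 12 had a lower mean log2 value and the median log2 fold change was -0.11, which became -0.27 without KLF2 3, -0.26 without EV 2, -0.07 without EV 1, -0.06 without EV 3 and -0.05 without KLF2 2. The receptor subunits were among the 3 that were higher. IFNAR1 had 1597, 1523 and 1168 normalized counts in KLF2 1 to 3, against 1000, 1391 and 1358 in EV 1 to 3. IFNAR2 had 2087, 1839 and 1292 in KLF2 1 to 3, against 1209, 1894 and 1562 in EV 1 to 3. In both, KLF2 1 was the highest and EV 1 the lowest library, KLF2 3 was the second lowest, and the log2 fold changes were 0.20 (SE 0.18) and 0.16 (SE 0.21). That of IFNAR1 was 0.04 without EV 1 and 0.34 without KLF2 3, and that of IFNAR2 was -0.01 without EV 1. TBK1, the kinase that activates interferon regulatory factors, was the third higher gene and one of the steadiest members, from 832 to 1017 over the 6 libraries.

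IRF8 and IRF9, transcription factors of the pathway, were highest in the wells where the receptors were lowest. IRF9, in mammals the DNA-binding subunit of the complex that interferon activates, had 742, 924 and 1140 normalized counts in KLF2 1 to 3, against 1574, 860 and 991 in EV 1 to 3. IRF8, known for its role in blood cells, had 1450, 1269 and 1979 in KLF2 1 to 3, against 2270, 1435 and 1500 in EV 1 to 3. For both, EV 1 and KLF2 3 were the highest libraries. IRF1, which interferon gamma induces in mammals, had 811, 1035 and 1246 in KLF2 1 to 3, against 1239, 1145 and 1392 in EV 1 to 3. Its log2 fold change of -0.31 (SE 0.17) became -0.14 without KLF2 1. IRF9 and IRF8 had log2 fold changes of -0.26 and -0.14, and that of IRF9 was -0.44 without EV 2 and -0.00317 without EV 1. IRF7, the factor that drives type I interferon genes in chickens, averaged 831 ± 188 over KLF2 libraries and 1053 ± 329 over EV libraries (SD, n = 3). STAT2, the partner of IRF9 in mammals, averaged 248 ± 111 over KLF2 libraries and 346 ± 120 over EV libraries (SD, n = 3), and its span overlaps another gene in RefSeq, IL23A. IRF2, which competes with IRF1, stayed between 681 and 920 over all 6 libraries.

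Among the most abundant signalling genes per kb, USP18 and NMI had log2 fold changes near 0, and that of TRIM25 equalled the median of the role. TRIM25, which in mammals activates RIG-I, had 7748, 7533 and 5971 normalized counts in KLF2 1 to 3, against 6887, 7842 and 8172 in EV 1 to 3. USP18 had 4975, 4649 and 3673 in KLF2 1 to 3, against 4090, 4296 and 4962 in EV 1 to 3. NMI, which binds STAT proteins and IFI35, had 3652, 3970 and 3721 in KLF2 1 to 3, against 3390, 3733 and 4302 in EV 1 to 3. Their log2 fold changes were -0.11 (SE 0.15), -0.01 (SE 0.15) and -0.00446 (SE 0.14), each with overlapping groups. The 95% interval of USP18 was -0.34 to 0.32, so changes of up to that size in either direction lie within it. TRIM25 overlaps DGKE and SCPEP1 by start and end, and whether exons overlap was not examined. IFI35 and SOCS1, an inhibitor of JAK kinases, had log2 fold changes of -0.28 and -0.10.

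Effectors leaned lowest: 16 of 18 had a lower mean log2 value in KLF2 libraries, the median log2 fold change was -0.26, and 0 passed the threshold. That median became -0.41 without EV 2, -0.17 without EV 3 and -0.16 without EV 1 or KLF2 1. IFIT5 had 5834, 5991 and 6962 normalized counts in KLF2 1 to 3, against 8062, 6048 and 9641 in EV 1 to 3. EV 1 and EV 3 stood above all KLF2 libraries and EV 2 lay among them, and the averages were 6262 ± 611 for KLF2 libraries and 7917 ± 1801 for EV libraries (SD, n = 3). That is a log2 fold change of -0.32 (SE 0.17), with a 95% interval from -0.69 to 0.06 and an adjusted p of 0.962 in limma. The log2 fold change was -0.50 without EV 2 and -0.16 without EV 3.

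CMPK2, a mitochondrial nucleotide kinase, was likewise highest in EV 3 and EV 1. It had 936, 1156 and 1263 in KLF2 1 to 3, against 1520, 1113 and 1560 in EV 1 to 3. LY6E, a membrane-anchored protein that restricts coronaviruses in mammals, had 600, 545 and 631 in KLF2 1 to 3, against 907, 570 and 784 in EV 1 to 3. In both, EV 1 and EV 3 exceeded every KLF2 library and EV 2 did not, with log2 fold changes of -0.32 (SE 0.17) for CMPK2 and -0.32 (SE 0.19) for LY6E. HELZ2, a helicase that coactivates nuclear receptors, had 3813, 4073 and 3585 in KLF2 1 to 3, against 5868, 2818 and 5261 in EV 1 to 3. Here the spread lay within EV, since EV 2 was the lowest library and EV 1 was 2.08 times higher.

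OASL, IFI6 and B2M had wide ranges within both groups. OASL had 2235, 2893 and 5152 normalized counts in KLF2 1 to 3, against 8098, 3473 and 4983 in EV 1 to 3. IFI6 had 1291, 1726 and 4255 in KLF2 1 to 3, against 5401, 1468 and 2548 in EV 1 to 3. B2M had 2972, 4116 and 6846 in KLF2 1 to 3, against 6212, 4474 and 4977 in EV 1 to 3. EV 1 and KLF2 3 were the highest libraries for all 3 genes, and KLF2 1 the lowest. The log2 fold changes were -0.69 (SE 0.41) for OASL, -0.36 (SE 0.68) for IFI6 and -0.24 (SE 0.28) for B2M, and every one of the 3 had overlapping groups. That of OASL was -0.37 without EV 1 and -1.03 without KLF2 3. In the authors' deposited table OASL is listed at a log2 fold change of -0.69, with a p of 0.0321 before adjustment and 0.9999 after it.

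EIF2AK2, the kinase PKR that halts translation on double-stranded RNA, had 1432, 1555 and 1205 normalized counts in KLF2 1 to 3, against 1542, 1612 and 1760 in EV 1 to 3. ADAR, which edits adenosine in double-stranded RNA, had 1588, 1507 and 1658 in KLF2 1 to 3, against 1962, 1499 and 1630 in EV 1 to 3. PARP12, an ADP-ribosyltransferase, had 1477, 1415 and 1386 in KLF2 1 to 3, against 1561, 1474 and 1669 in EV 1 to 3. KLF2 3 was the lowest library for EIF2AK2 and PARP12 and EV 2 for ADAR, and the log2 fold changes were -0.24 (SE 0.15), -0.14 (SE 0.13) and -0.09 (SE 0.15) for EIF2AK2, PARP12 and ADAR.

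Of the remaining effectors RSAD2, the antiviral enzyme viperin, had 97.5, 84.9 and 85.0 in KLF2 1 to 3, against 124, 97.9 and 104 in EV 1 to 3. Its groups did not overlap, though KLF2 1 and EV 2 were nearly equal, and the log2 fold change was -0.28 (SE 0.24). MX1, in mammals a dynamin-like GTPase that blocks many RNA viruses, averaged 441 ± 119 over KLF2 libraries and 542 ± 160 over EV libraries (SD, n = 3). EPSTI1 and RNF213, a giant ubiquitin ligase, had log2 fold changes of -0.35 and -0.29, and IFI27L2 and PARP9, an ADP-ribose reader, -0.13 and -0.08. The 2 effectors with a higher mean log2 value were DDX60, a helicase linked to antiviral RNA sensing in mammals, at 0.28 (SE 0.28), and DTX3L, the ubiquitin ligase partner of PARP9, at 0.02 (SE 0.16).

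Across the 6 wells, EV 1 or EV 3 was the highest library for 17 of 18 effectors, the exception being B2M, and EV 2 was the lowest of the EV libraries for 15 of 18. Over all 10893 genes with a mean of at least 20, EV 1 or EV 3 was the highest for 37.1% and EV 2 the lowest EV library for 29.3%. EV 3 was the highest library for 10 of 18 effectors and for 14 of 41 members, or 34.1%, against 8.89% of all those genes. EV 3 was the lowest library for 0 of 41 members, against 8.68% of genes. The median deviation of the effectors from their 6-library mean was -0.12, -0.15 and 0.00990 in KLF2 1 to 3, against 0.28, -0.20 and 0.24 in EV 1 to 3. EV 2 was thus near KLF2 1 and KLF2 2. The range within EV exceeded the difference between group means for 94.4% of effectors and for 89.1% of those 10893 genes. For the range within KLF2 the shares were 72.2% of effectors and 92.3% of those genes. No test is given for these counts, since members are not replicates.

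**Figure D3:**
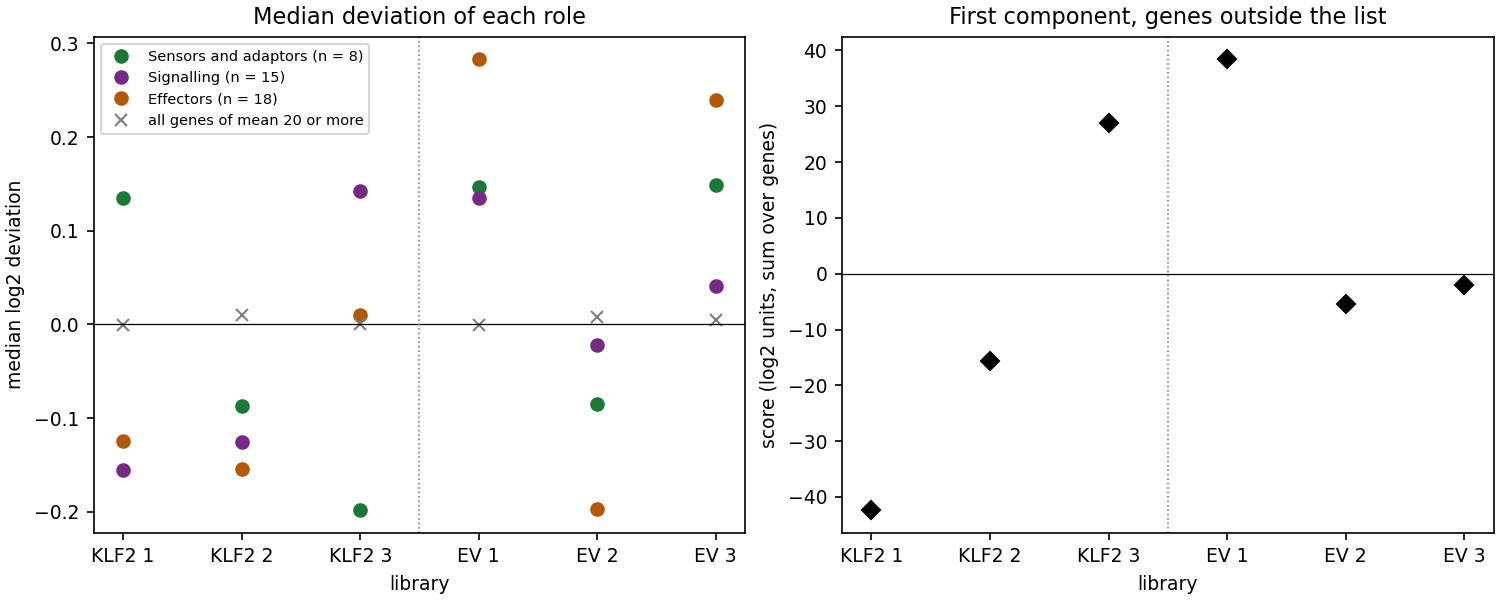
Left, median log2 deviation of each role from its 6-library mean, per library, with all genes of mean 20 or more as crosses; right, score of each library on the first component of genes outside the list. Effectors were highest in EV 1 (0.28) and EV 3 (0.24), whose component scores were 38.4 and -2.04.

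The other roles shared part of this profile. EV 1 or EV 3 was the highest library for 62.5% of sensors and adaptors and 66.7% of signalling genes, beside 37.1% of the 10893 genes. EV 2 was the lowest EV library for 62.5% of sensors and adaptors and 53.3% of signalling genes, beside 29.3%. The median deviation of signalling genes was -0.16, -0.13 and 0.14 in KLF2 1 to 3, against 0.14, -0.02 and 0.04 in EV 1 to 3. This median was thus highest in KLF2 3 and EV 1, the libraries with the highest component scores, but single signalling genes differed. KLF2 3 was the highest library for 0 of the 15 and the lowest for 2. EV 1 was the highest for 7 and the lowest for 4. The median deviation of sensors and adaptors was 0.13, -0.09 and -0.20 in KLF2 1 to 3, against 0.15, -0.09 and 0.15 in EV 1 to 3.

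**Figure D4:**
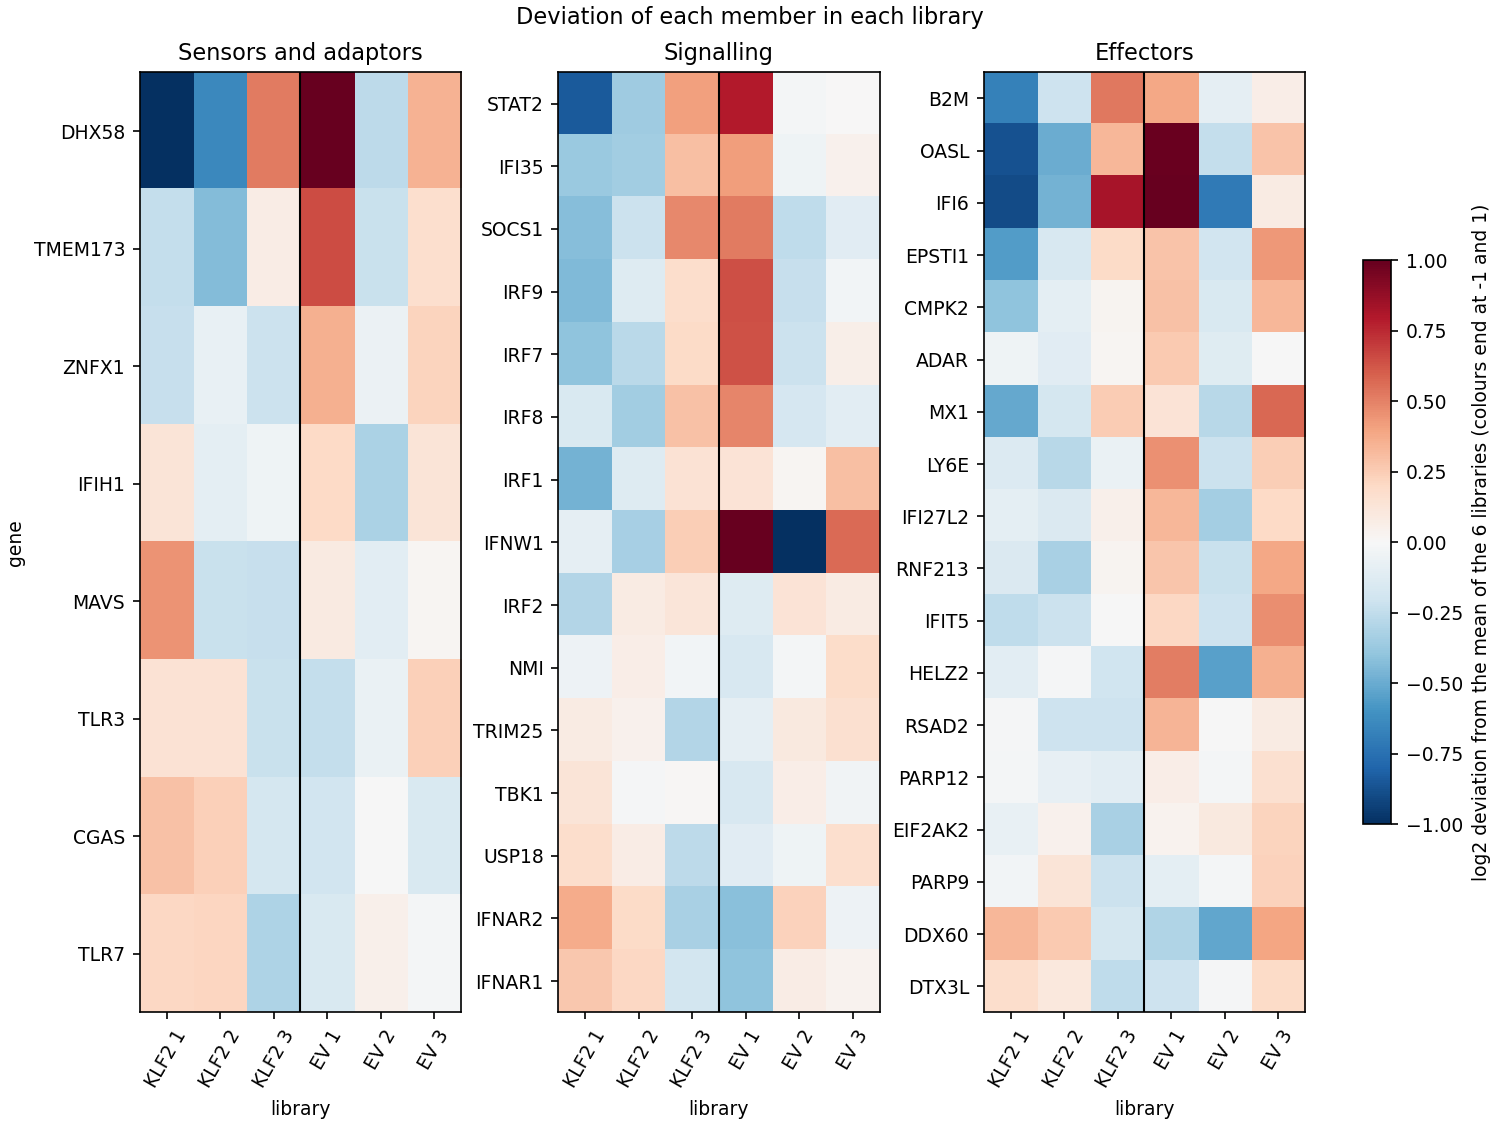
Log2 deviation of each gene from its mean over the 6 libraries, in colour, by role, with KLF2 libraries left of the black line and EV libraries right of it. Genes run from those most positively correlated with the first component (top) to those most negatively correlated; STAT2, OASL and B2M were high in KLF2 3 and EV 1, and IFNAR1 and IFNAR2 were low there.

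The members were also set against the first component. Of the 40 members with a mean of at least 20, 10 had a Pearson correlation with that component over 0.8, or 25.0%, and 5 a correlation under -0.8, or 12.5%. Among all 10893 genes the shares were 23.1% and 23.3%, so the first share of the members was near that of all genes and the second lower. The median correlation with the component was 0.53 for the members, beside 0.0114 for all genes. By role it was 0.585 for effectors, 0.553 for signalling genes and -0.164 for sensors and adaptors. Over 0.8 lay 42.9% of signalling genes, 16.7% of effectors and 12.5% of sensors and adaptors. The first set was STAT2 (0.99), B2M, IFI35, DHX58, SOCS1, OASL, IFI6, IRF9, IRF7 and IRF8. The second was IFNAR1 (-0.96), IFNAR2, TLR7, CGAS and DTX3L, and 25 members were in neither. Of the 15 members on chromosomes 11 to 28 and 30 to 38, 7 were in the first set and 0 in the second, and of the 19 on chromosomes 1 to 5 and Z, 2 were in the first and 4 in the second. Among all genes, 36.1% were over 0.8 and 13.3% under -0.8 on those smaller chromosomes, and 13.5% and 30.5% on the larger ones. The part of this component in the members' values was not tested. IFIH1 (0.15), PARP12 (0.09) and EIF2AK2 (-0.22) were nearly unrelated to it.

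Pairs of effectors were the most alike. The median Pearson correlation of log2 values over the 6 libraries was 0.57 for the 153 pairs of effectors, 0.10 for the 28 pairs of sensors and adaptors and -0.11 for the 91 pairs of signalling genes, beside -0.00060 for all pairs of the 10893 genes. A correlation over 0.8 was found for 22.2% of effector pairs, 20.9% of signalling pairs and 10.4% of all gene pairs, and one under -0.8 for 0.654%, 18.7% and 10.2%. Between roles, the median was 0.32 for sensors and adaptors with effectors and 0.21 for signalling genes with effectors. For sensors and adaptors with signalling genes it was -0.0025. With group means removed, the medians were 0.52 for effectors and -0.05 for signalling genes. With EV 1 and KLF2 3 left out, the effector median was 0.76 over the other 4 libraries, beside -0.0006 for all gene pairs. A correlation over 0.8 was then found for 36.6% of effector pairs and 13.6% of all gene pairs. These 4 libraries still differ on the first component, from -42.4 in KLF2 1 to -2.04 in EV 3. In these 4 libraries the median deviation of the effectors was -0.12 in KLF2 1, -0.15 in KLF2 2, -0.20 in EV 2 and 0.24 in EV 3. EV 2 and EV 3 scored -5.47 and -2.04 on the component. The part of the component in the value of 0.76 was not tested. The 6 libraries are shared by all these pairs, so the medians are descriptions with no test.

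**Figure D5:**
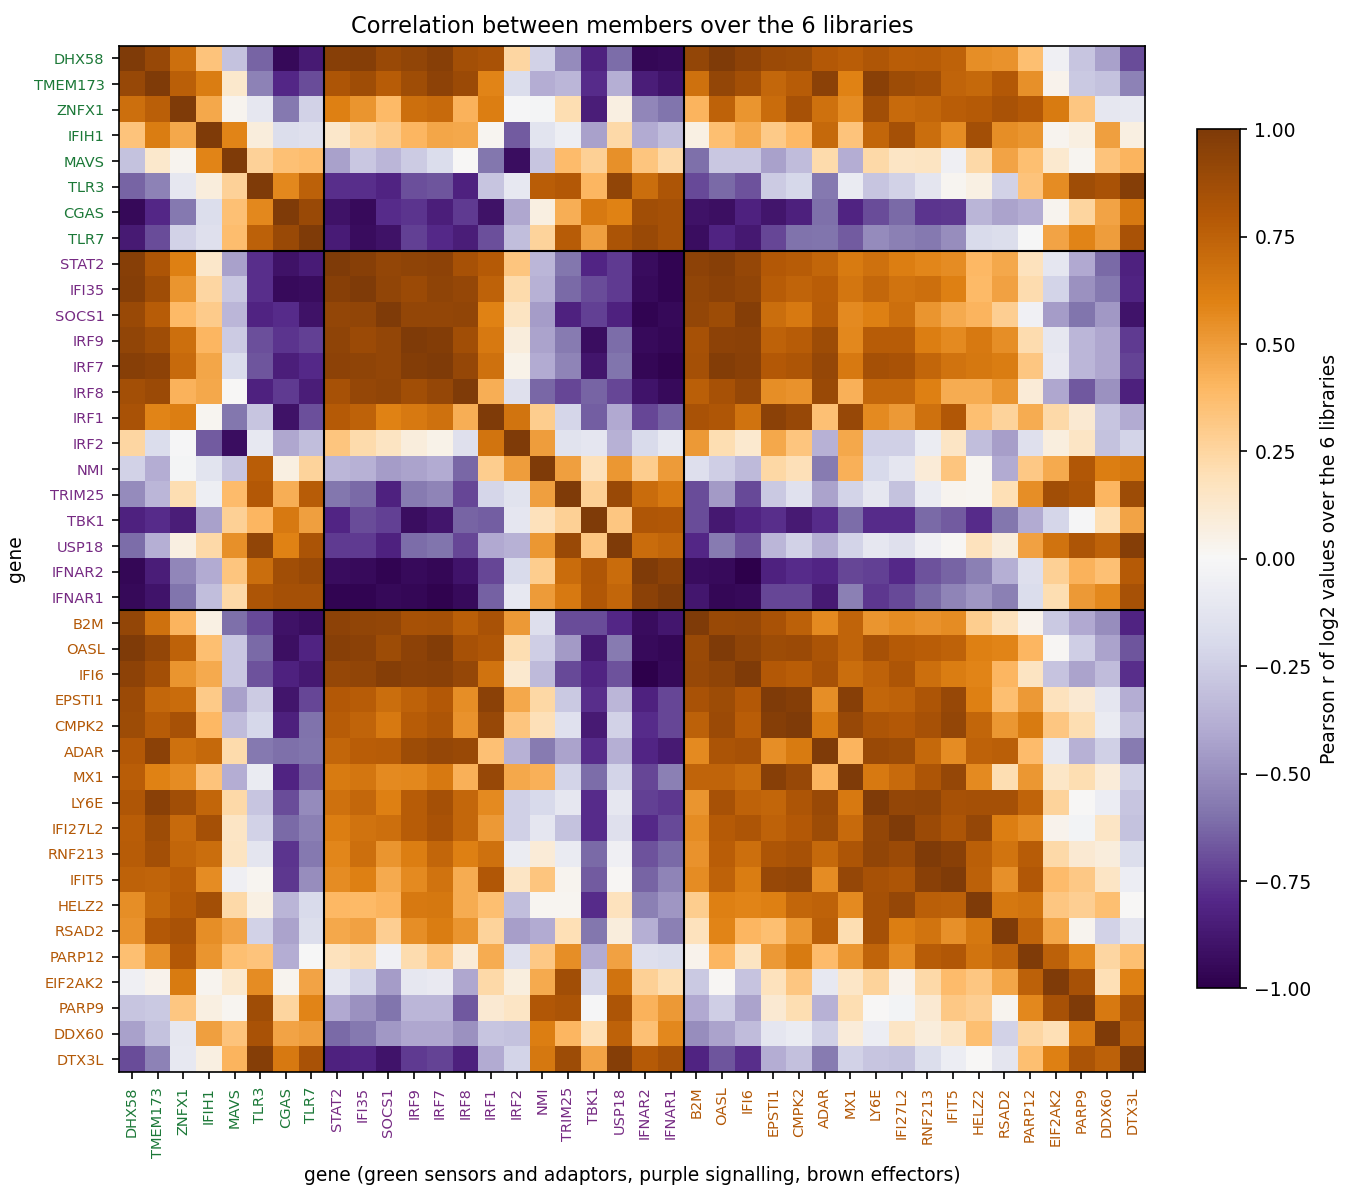
Pearson correlation of log2 values over the 6 libraries for each pair of the 40 members with a mean of at least 20, grouped by role (label colours) and ordered within a role by correlation with the first component. Most effector pairs are positive (median 0.57), and the signalling block splits into positive and negative parts (median -0.11).

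Some known partners were compared over the 6 libraries. These 10 pairs were chosen after the values were seen, from the same wells, so their correlations are descriptions with no test. IRF7 and OASL had a Pearson r of 0.98 and a Spearman rho of 1.00, and r was 0.97 without KLF2 1 and EV 1, the libraries farthest from the median of IRF7. STAT2 and IRF9, subunits of the same complex in mammals, had r = 0.93 and rho = 0.94, with r = 0.76 without KLF2 1 and EV 1. IFNAR1 and IFNAR2, the receptor subunits, whose genes start 33513 bases apart on chromosome 1, had r = 0.95 and rho = 0.94, with r = 0.79 without KLF2 3 and EV 1. All 6 genes were correlated with the first component at over 0.9 in size, so these relations cannot be told apart from it. PARP9 and DTX3L, neighbours on chromosome 7 whose spans overlap, had r = 0.82 and rho = 0.83, and r was 0.59 without KLF2 3 and EV 3. CGAS and TMEM173 had r = -0.80 and rho = -0.89, with r = -0.79 without KLF2 1 and KLF2 2. USP18 and STAT2 had r = -0.75 and rho = -0.77, with r = -0.68 without KLF2 1 and KLF2 3. Correlations with the first component were -0.88 for CGAS, 0.79 for TMEM173, -0.80 for USP18 and 0.99 for STAT2. The relations of CGAS with TMEM173 and of USP18 with STAT2 therefore cannot be told apart from that component either. For PARP9 and DTX3L the correlations with it were -0.45 and -0.86. The other 4 pairs, CMPK2 with RSAD2, IFIH1 with DHX58, NMI with IFI35 and EIF2AK2 with ADAR, had r from -0.37 to 0.52.

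Beyond the listed members, 66 further symbols of the interferon pathway were looked up, of which 40 had a row and 39 were tested. Of these 0 passed, 22 had a lower mean log2 value and 17 a higher one, with a median log2 fold change of -0.03. JAK1, the receptor kinase, averaged 12664 over KLF2 libraries and 12278 over EV libraries. TAP1 and TAP2, the peptide transporters of antigen presentation, had log2 fold changes of -0.45 and -0.46, and NLRC5, which activates MHC class I genes in mammals, -0.23; EV 1 was the highest and KLF2 1 the lowest library for all 3. In limma the genes of these 39 at an unadjusted p under 0.05 were NLRX1, TLR5 and TLR15, all lower. Of all tested genes 1.2% were lower at that level. All 3 had group means under 20 normalized counts, and NLRX1 in KLF2 2 and TLR15 in KLF2 1 had 0 reads. In DESeq2 the unadjusted p was 0.233 for NLRX1, 0.0729 for TLR5 and 0.112 for TLR15. In edgeR it was 0.0260 for TLR5 and 0.0770 for TLR15.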

How the data were processed

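Poly(A) RNA of 6 wells was sequenced. The submitters' processing notes name the build GRCg7b and the tools featureCounts (1.5.0-p3), HISAT2 (2.0.5), fastp and StringTie (1.3.3b). For the normalization and the authors' test, the program is not given in the sources used. DESeq2 on the recovered reads gave the size factors of the deposited values, such as 0.984731 for KLF2 1. It also gave the authors' unadjusted p for OASL, 0.0321. The DESeq2 fit is therefore not a check independent of the authors' table. Per the file headers, the deposited signal of a gene in a library is a normalized read count. Whole reads were recovered from it for 100% of values, at a tolerance of 1e-06. The authors' deposited table adds, for each gene, the log2 fold change and the p-value before and after adjustment.

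Because the values are normalized, the main test was robust limma-trend (limma 3.58.1, R 4.3.3) on log2(value + 1). Genes averaging at least 1 in KLF2 or in EV libraries entered it, which left 16765. Tests were two-sided, with Benjamini-Hochberg adjustment over those genes and a threshold of 0.05. Alternatives on the recovered reads used edgeR 4.0.16 and DESeq2 1.42.0. The fit was tested on simulated data in which genes varied independently. Those data lacked a component shared by many genes, so they do not show how the fit behaves with one. Members were matched by exact symbol. No protocol step marks strand, so reads of overlapping genes cannot be separated. Besides the members named above with an overlap, TLR3, MX1, EIF2AK2, HELZ2, IFI27L2 and RNF213 overlap another measured gene by start and end. Whether their exons overlap was not examined.

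The members, lists, alternatives and rules were chosen with earlier results of these data known. Values per library are given for up to 8 members per role with the highest mean, the 6 members with the lowest unadjusted p, and KLF2. RSAD2, IFNW1 and the further members named with group values were added after their values were seen. A planned promoter motif search was not run, since no sequence was used here.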

Additional observations from a re-analysis of the deposited data

How the results depend on the processing

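Under all 18 alternatives 0 members passed the threshold, and 0 genes passed in 17 of them; 4 did without EV 1 and KLF2 3, KLF2 among them (log2 fold change 0.93, adjusted p = 0.0184 in limma, range 0.0184 to 1.00 over the alternatives). Leaving out EV 1 ends the overlap of KLF2 by construction. With each library left out, the median log2 fold change ranged from -0.33 to -0.08 over members and from -0.27 to -0.053 over signalling genes, and 27 to 33 members were lower. Without EV 1 and KLF2 3 the median correlation was 0.46 for members, 0.27 for signalling genes and 0.76 for effectors, over 4 libraries. Of 736 values of single members, 688 kept their sign, 48 in 19 members turned, and 0 passed. The cause was not tested. The turned values of log2 fold change were as follows. MAVS was 0.036 with quantile normalization, 0.029 in edgeR and 0.031 in DESeq2. Without EV 1 and KLF2 3, IFIH1 was 0.11, MAVS 0.16, IFNW1 0.34, USP18 0.059 and HELZ2 0.034. With the gene length trend removed, MAVS was 0.0011, IFNW1 0.0051, USP18 0.0020 and NMI 0.0051. Ranges with each library left out were -0.17 to 0.089 for IFIH1, -0.061 to 0.18 for TLR3, -0.012 to 0.25 for TLR7, -0.23 to 0.11 for MAVS, -0.14 to 0.075 for IRF2, -0.32 to 0.068 for IRF8, -0.012 to 0.36 for IFNAR2, -0.99 to 0.50 for IFNW1, -0.37 to 0.13 for SOCS1, -0.10 to 0.12 for USP18, -0.085 to 0.087 for NMI, -0.19 to 0.0050 for TRIM25, -0.16 to 0.020 for PARP9, -0.078 to 0.15 for DTX3L, -0.87 to 0.13 for IFI6, -0.33 to 0.0046 for IFI27L2, -0.56 to 0.038 for B2M and -0.18 to 0.018 for ADAR. In the fit with a replicate block, 0 genes and 0 members were past the threshold. Whether a shared replicate number marks a shared batch is not stated. Within-group residuals of KLF2 and EV libraries sharing a number correlated at -0.60, 0.14 and -0.51. These residuals also hold the first component, so they cannot decide whether the wells were paired. With 3 wells a group and a median SE of 0.21 among members, small changes could not be called, and counts near the floor limit IFNW1. Larger ones were not called either: in the main fit KLF2, at a log2 fold change of 1.00, and DHX58, at -0.76, did not pass.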

Other observations

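Rows without a symbol overlap 3 of the listed genes that had no row of their own by name, going by RefSeq coordinates of the same build. The row ENSGALG00010005012, which overlaps SAMD9L on chromosome 2 (22812997 to 22822741), had 325, 398 and 312 normalized counts in KLF2 1 to 3, against 443, 344 and 590 in EV 1 to 3. Its log2 fold change was -0.38 (SE 0.21, limma adjusted p = 0.962), and EV 3 and EV 1 were its highest libraries. The row ENSGALG00010022207, which overlaps PARP14 on chromosome 7 (27855550 to 27871634), next to PARP9 and DTX3L, had 2441, 2945 and 2270 in KLF2 1 to 3, against 2683, 2654 and 3235 in EV 1 to 3, with a log2 fold change of -0.17 (SE 0.15). A second row over PARP14 had means of 8.73 and 19.9 in KLF2 and EV libraries. The 4 rows that overlap XAF1 had means from 0.637 to 41.9 in KLF2 libraries and from 0 to 35.0 in EV libraries.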
